A study of Caenorhabditis elegans with 13 samples.

Results

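Larvae lacking the histone methyltransferases MET-2 and SET-25 were compared with wild type larvae in their mRNA, gene by gene, to describe which gene families, tissues and functions were higher or lower without H3K9 methylation. The samples were first-stage (L1) hermaphrodites of the nematode Caenorhabditis elegans that had hatched without food and then fed for 3 hours. Genes were taken from the deposited table of group means when the average of the 2 groups was above 1 FPKM (fragments mapped per length of transcript and per depth of the library), and 16099 of 46170 genes passed. The change of a gene was the log2 ratio of (FPKM + 0.1) in met-2 set-25 over wild type, shifted so that the median gene stood at 0. The shift was small, since the median before centring was 0.07. A gene was called higher or lower when this centred value was above 1 or below -1, which is a difference past 2-fold.

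The mutant group was strain EKM99, carrying met-2(n4256) and set-25(n5021) together, on vector control RNAi (3 libraries). A pair of further groups is given beside it throughout. One was strain RB2301, carrying cec-4(ok3124), on vector RNAi (3 libraries), and the other was the N2 wild type strain on RNAi against dpy-27 (4 libraries), called dpy-27(RNAi) after its label. The control group was N2 on vector RNAi (3 libraries). The labels name vector RNAi while the growth protocol names plates of the ordinary food strain OP50. RNA came from packed whole larvae, so all tissues are mixed, and the libraries kept no strand, so reads of overlapping genes cannot be told apart. The values are the authors' mean of each group. They carry no replicate spread and no depth, so every difference below is a size without an error or a p-value.

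MET-2 places mono- and dimethylation on lysine 9 of histone H3, and SET-25 adds trimethylation. In C. elegans these marks lie mainly on repeats, silent genes and the arms of the autosomes. The paper also names the left end of the X chromosome as enriched for H3K9 trimethylation. The chromodomain protein CEC-4 binds methylated H3K9 at the nuclear periphery. DPY-27 is a condensin subunit of the dosage compensation complex, which lowers expression from the X chromosomes of hermaphrodites. A newly hatched larva has only a pair of primordial germ cells, so most transcripts of the later germline are scarce at this stage.

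set-25 had 4.15 FPKM in met-2 set-25, 7.78 in cec-4, 7.02 in dpy-27(RNAi) and 8.93 in wild type, a centred log2 ratio of -1.16 to wild type. met-2 had 13.7 FPKM in met-2 set-25, 18.2 in cec-4, 15.9 in dpy-27(RNAi) and 17.6 in wild type, a ratio of -0.44, which is not past 2-fold. A summed gene value does not show which exons the reads came from, so transcript of a mutated gene can still be counted. cec-4 had 22.9 FPKM in met-2 set-25, 7.02 in cec-4, 14.5 in dpy-27(RNAi) and 18.2 in wild type. The dpy-27 transcript differed little in its RNAi group, with 31.6 FPKM in dpy-27(RNAi) and 32.3 in wild type. These mRNA means do not show the knockdown. At the protein level, the paper reports by western blot a significant reduction of DPY-27 in the RNAi larvae.

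Of the 16099 genes, 1723 (10.7%) were called higher in met-2 set-25 and 1370 (8.51%) were called lower. Among the 13091 protein-coding genes, 808 (6.17%) were higher and 817 (6.24%) lower. Because all comparisons here share the wild type control, a gene in which wild type stands apart moves in each of them. A stricter count therefore asked that met-2 set-25 stand past 2-fold of each of the other 3 groups. It was met upward by 794 genes (4.93%) and downward by 290 (1.8%), and among protein-coding genes by 367 (2.8%) upward and 121 (0.924%) downward. Thus 367 of the 808 protein-coding genes called higher were above every other group, while 121 of the 817 called lower were below every other group. For scale, 663 protein-coding genes were higher and 563 lower in cec-4 over wild type, and 360 were higher and 289 lower in dpy-27(RNAi) over wild type.

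Genes of the meiotic chromosome axis and of synapsis stood highest among 23 gene lists of tissues and processes. Of 27 listed genes 23 passed the FPKM minimum, and 12 of them were called higher and 0 lower, against 10.7% and 8.51% of all genes. Their median was 1.09, beside a median of 0 and quartiles of -0.44 and 0.44 over all genes, and 9 stood past 2-fold above each of the other 3 groups. syp-1, which encodes a central component of the synaptonemal complex, had 40.6 FPKM in met-2 set-25, 2.57 in cec-4, 2.95 in dpy-27(RNAi) and 2.47 in wild type. The cohesin subunit gene coh-4 had 12.5 FPKM in met-2 set-25, 1.09 in cec-4, 1.26 in dpy-27(RNAi) and 0.767 in wild type. dsb-2, needed for meiotic double-strand breaks, had 25.8 FPKM in met-2 set-25, 1.3 in cec-4, 2.55 in dpy-27(RNAi) and 2 in wild type. In all of these genes the other groups lay close together and the mutant stood alone. The axis genes htp-3 and him-3 followed with log2 ratios of 3.47 and 3.38, and the meiotic cohesin gene rec-8 with 2.49.

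The list did not move as a block. syp-2, whose product sits in the same structure as SYP-1, had 2.57 FPKM in met-2 set-25, 2.86 in cec-4, 2.91 in dpy-27(RNAi) and 2.55 in wild type. spo-11, which makes the breaks, had 1.55 FPKM in met-2 set-25 and 1.35 in wild type. him-17, a chromatin protein of meiosis that was already at 19.2 FPKM in wild type, had 20.2 FPKM in met-2 set-25. The medians of the same list were 0.11 in cec-4 over wild type and 0.29 in dpy-27(RNAi) over wild type. Because a gene silent in wild type passes the minimum only through the mutant, the list was also read on genes averaging above 1 FPKM in cec-4 and dpy-27(RNAi), a filter that uses neither group compared. On it 11 of 25 genes were higher and 0 lower, beside 9.30% and 7.73% of 16369 genes.

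Genes of P granules, the RNA-protein bodies of germ cells, and of germline RNA regulation showed a similar mixture. Of 42 listed genes 35 passed, 10 were called higher (28.6%, against 10.7% of all genes) and 1 lower (2.86%, against 8.51%). The median was 0.57, and 9 stood above each of the other groups, which 4.93% of all genes did. glh-1, a Vasa-related helicase of P granules, had 168 FPKM in met-2 set-25, 17.4 in cec-4, 26.8 in dpy-27(RNAi) and 25.5 in wild type. pgl-1, which encodes a P granule scaffold, had 25 FPKM in met-2 set-25, 4.55 in cec-4, 7.51 in dpy-27(RNAi) and 3.45 in wild type, and its relative pgl-3 had 7.21 FPKM in met-2 set-25, 1.33 in cec-4, 2.21 in dpy-27(RNAi) and 1.10 in wild type. The translational repressor gene gld-1 had 23.6 FPKM in met-2 set-25, 4.57 in cec-4, 8.38 in dpy-27(RNAi) and 6.22 in wild type. The largest ratio was that of cpb-1, a relative of the RNA-binding protein CPEB, with 5.13 FPKM in met-2 set-25, 0.445 in cec-4, 0.450 in dpy-27(RNAi) and 0.446 in wild type. The Pumilio-family genes puf-7 (log2 ratio 2.78) and puf-6 (2.31) were also higher, and so was rnp-8 (2.50), which encodes a partner of the poly(A) polymerase GLD-2.

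Other regulators of the same list stayed near wild type. The maternal factor genes pie-1, with 1.98 FPKM in met-2 set-25 and 2.32 in wild type, and oma-1, with 1.41 FPKM in met-2 set-25 and 1.33 in wild type, did not pass 2-fold. gld-2 had 50.6 FPKM in met-2 set-25 and 43.3 in wild type. The 1 gene called lower was spn-4, which encodes an embryonic RNA-binding protein, with 2.23 FPKM in met-2 set-25, 2.60 in cec-4, 4.11 in dpy-27(RNAi) and 5 in wild type. The medians of the list were -0.05 in cec-4 over wild type and 0.33 in dpy-27(RNAi) over wild type. On the filter that reads neither group, 9 of 32 genes (28.1%) were higher and 1 (3.13%) was lower, beside 9.30% and 7.73% of all genes on that filter.

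Genes of the small RNA pathway had a median of -0.05 as a list. Of 46 listed genes 45 were in the table and 41 passed, and 5 were called higher and 0 lower. The 5 were 12.195% of those that passed, against 10.7% of all genes and 6.17% of protein-coding genes. The 5 genes called higher all encode Argonaute proteins, and 4 of them stood above every other group. wago-4 had 37.3 FPKM in met-2 set-25, 1.92 in cec-4, 2.24 in dpy-27(RNAi) and 1.28 in wild type, and was among the 12 protein-coding genes of largest ratio named below. hrde-1, the germline nuclear Argonaute of inherited silencing, had 65.4 FPKM in met-2 set-25, 4.2 in cec-4, 6.19 in dpy-27(RNAi) and 4.12 in wild type. prg-1, the Piwi Argonaute, had 137 FPKM in met-2 set-25, 12.7 in cec-4, 24.4 in dpy-27(RNAi) and 14.3 in wild type. wago-1 (log2 ratio 1.62) and prg-2 (1.41) were the other 2. The mutant stood far above the 3 other groups for wago-4, hrde-1 and prg-1.

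Argonaute genes that also act in the soma did not pass 2-fold. The microRNA Argonaute gene alg-1 had 63.8 FPKM in met-2 set-25 and 54.7 in wild type, and rde-1 had 46.5 FPKM in met-2 set-25 and 33.8 in wild type. csr-1, a further germline Argonaute gene, had 8.45 FPKM in met-2 set-25, 11.6 in cec-4, 10.4 in dpy-27(RNAi) and 9.94 in wild type. Its ratio of -0.30 was on the opposite side from those of wago-4, hrde-1 and prg-1.

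**Figure D1:**
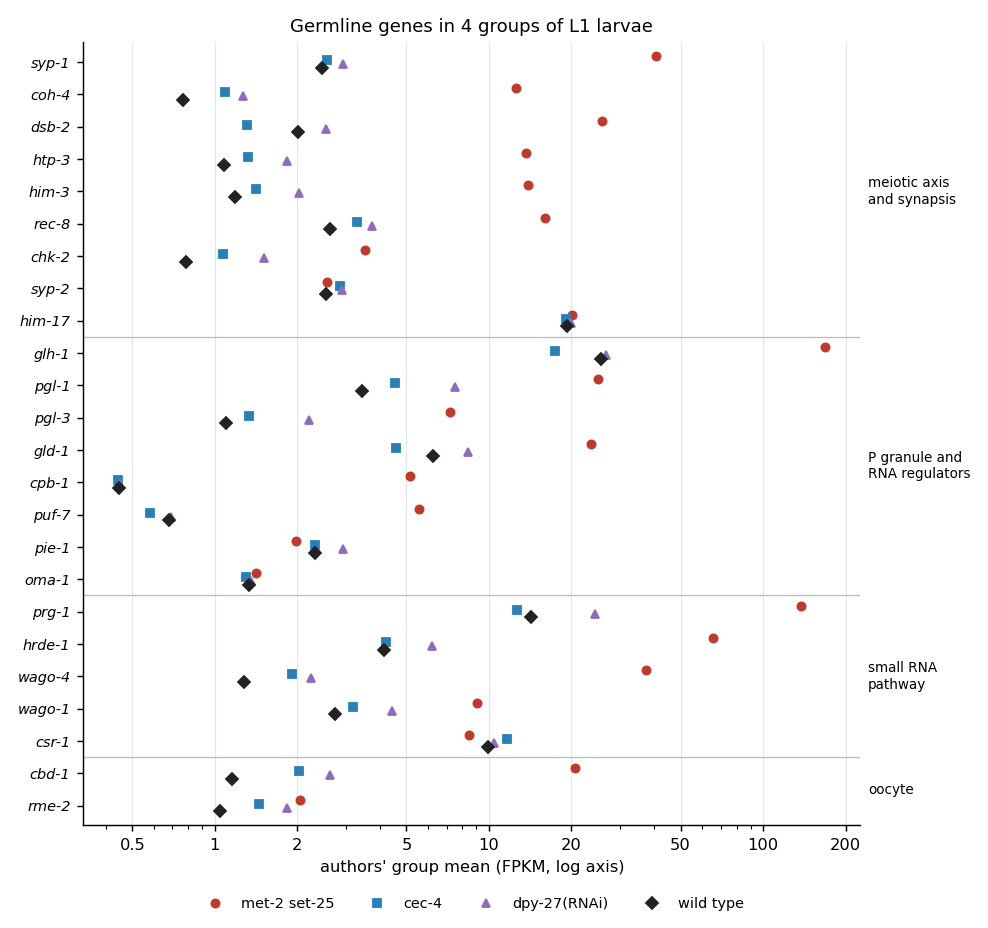
Each row is a gene and each mark the authors' mean FPKM of 1 group on a log axis, with met-2 set-25 as red circles, cec-4 as blue squares, dpy-27(RNAi) as purple triangles and wild type as black diamonds. For syp-1, cpb-1, hrde-1 and wago-4 the met-2 set-25 mark lies far right of 3 marks that sit together, while syp-2, him-17, pie-1, oma-1 and csr-1 have all 4 marks close together.

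Most products of gametes were below the FPKM minimum. Of 20 oocyte and eggshell genes 7 passed, and all 7 lay above 0 with a median of 0.83. Of the 7, 3 were called higher, beside 10.7% of all genes, and 1 stood above every other group. That gene, cbd-1, which encodes a chitin-binding protein of the eggshell, had 20.6 FPKM in met-2 set-25, 2.02 in cec-4, 2.63 in dpy-27(RNAi) and 1.16 in wild type. The yolk protein genes vit-1 to vit-6 were all below the minimum, the highest being vit-6 with 0.356 FPKM in met-2 set-25 and 0.192 in wild type. Of 54 sperm genes, 24 were listed at 0 in met-2 set-25 and 25 in wild type. Only 5 of the 54 passed, and the summed level of the whole list was 52.3 FPKM in met-2 set-25, 46.2 in cec-4, 44.3 in dpy-27(RNAi) and 44 in wild type. Among those that passed, spe-6 (1.82 FPKM in met-2 set-25, 0.739 in wild type) and spe-15 (11.1 FPKM in met-2 set-25, 4.92 in wild type) were called higher, and neither stood above all 3 other groups. In mRNA of whole larvae a larger number of germ cells and more RNA per cell cannot be told apart, and the lower level of DNA replication genes described below goes with the same contrast to wild type. Its part in the germline values was not tested.

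The rule for single genes took the 12 largest ratios in each direction among genes with 5 FPKM or more in the higher group and past 2-fold of every other group. Over all genes it named 24 genes, of which 23 were listed at 0 in the lower group of the comparison. Their median exon length was 70 bases, 16 of them were non-coding RNA genes and 2 were tRNA genes. FPKM of such short genes rests on few reads, so they are not described singly, and the rule was applied within protein-coding genes instead, a choice made after these values were seen. It had 247 protein-coding genes to choose from upward and 72 downward. Short genes remain among those named, with 99 exon bases in Y38H8A.12, 93 in Y113G7A.22 and 216 in M162.15.

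Upward, sri-31, a serpentine receptor gene of the chemoreceptor type at II:3051003-3052376 (Ensembl release 115 annotation of WBcel235), had 40.1 FPKM in met-2 set-25, 1.05 in cec-4, 0.962 in dpy-27(RNAi) and 0.822 in wild type. F15D4.5, at II:13245376-13247774, reached the highest level of the 12, with 322 FPKM in met-2 set-25, 6.43 in cec-4, 7.02 in dpy-27(RNAi) and 7.33 in wild type. Both lie on chromosome II, and in both the other groups lay together far below the mutant. M162.15 had 8.91 FPKM in met-2 set-25 and was listed at 0 in the other 3 groups. C55C3.3 had 15.6 FPKM in met-2 set-25, 0.123 in cec-4, 0.266 in dpy-27(RNAi) and 0.238 in wild type, and Y57A10A.2 had 33.3 FPKM in met-2 set-25, 1.28 in cec-4, 1.68 in dpy-27(RNAi) and 1.25 in wild type. The other 7 were T06A10.107, Y105C5B.20, C04B4.2, wago-4, F08A8.8, Y38H8A.12 and F40D4.13, with log2 ratios between 4.49 and 5.82. C04B4.2 alone of the 12 lies on the X chromosome.

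Further genes with a known germline role were found while reading the genes above all groups, and were chosen after their values were seen. lotr-1, listed in the table as D1081.7 and encoding a LOTUS-domain protein of P granules, had 57.8 FPKM in met-2 set-25, 2.02 in cec-4, 3.11 in dpy-27(RNAi) and 2.58 in wild type. zhp-2, listed as D1081.9 and encoding a RING protein of the synaptonemal complex, had 33 FPKM in met-2 set-25, 2.17 in cec-4, 2.42 in dpy-27(RNAi) and 1.87 in wild type. fog-2, an F-box gene that lets hermaphrodites make sperm, had 11.1 FPKM in met-2 set-25, 1.24 in cec-4, 1.56 in dpy-27(RNAi) and 0.858 in wild type. him-19, which acts in meiotic pairing, had 23.6 FPKM in met-2 set-25, 3.97 in cec-4, 3.85 in dpy-27(RNAi) and 3.93 in wild type. The gonadal gap junction genes inx-21 and inx-22 were higher by log2 ratios of 2.12 and 1.88.

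Among families of genes sharing a name, bath held the most genes above every other group. BATH proteins join a MATH domain to a BTB domain, and proteins of this kind can act as substrate adaptors of CUL-3 ubiquitin ligases. Of 44 bath genes 36 passed, 15 were called higher (41.7%) and 0 lower, and the median was 0.55. Past 2-fold above each of the other groups were 12. Of all genes 10.7% were higher and 4.93% stood above each other group, and of protein-coding genes 6.17% and 2.8%. bath-2 had 21.2 FPKM in met-2 set-25, 1.06 in cec-4, 1.35 in dpy-27(RNAi) and 0.814 in wild type. bath-30 had 19.99 FPKM in met-2 set-25, 1.10 in cec-4, 1.68 in dpy-27(RNAi) and 1.09 in wild type. bath-29 (log2 ratio 4.18) and bath-19 (3.77) completed the 4 largest. All 15 lie on chromosome II, where 26 bath genes passed with a median of 1.82, while 0 of the 10 on chromosomes I, III, IV and V were called. Several bath genes on chromosome II passed the minimum only through the mutant, as bath-21 with 1.93 FPKM in met-2 set-25 and 0.300 in wild type. That filter therefore raises the median of 1.82. On the filter that reads neither group, 8 of 28 bath genes were higher and 0 lower, beside 9.30% and 7.73% of all genes. The family median there was 0.37, and the split by chromosome was not made on it. Reads of near-identical copies may be shared among neighbours, since reads were allowed many alignments, so the value of a single member is less certain than that of its cluster.

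Of the 15 bath genes that were higher, 12 lay in clusters of neighbouring genes called together, and bath-4, bath-11 and bath-45 did not. Runs of 3 or more neighbours that passed the minimum and were all higher numbered 66 and held 255 genes, and runs of lower genes numbered 28 and held 95 genes. These totals count every class of gene. A run of 9 higher genes at V:14499218-14507533, for example, held 1 protein-coding gene and 0 pseudogenes. Genes below the minimum were skipped when neighbours were joined. A gene silent in one of the compared groups passes only through the other, so the minimum favours called genes. Runs were not counted on the filter that reads neither group. The longest run spanned II:2014902-2046656 with 13 genes, among them bath-21, bath-1, bath-3, bath-5, bath-19, bath-20, bath-24, btb-3, btb-4 and math-1. Their median log2 ratio was 2.01, 3 of the 13 are pseudogenes, and 10 stood above every other group. A run of 8 genes at II:1921433-1934507 held bath-2, bath-22 and 4 pseudogenes, and a run of 7 at II:3340551-3358983 held bath-28, bath-29 and bath-30, with all 7 above every other group. A further run of 9 genes lay on the other arm, at II:12114971-12162661, with 5 pseudogenes and a median of 2.87. It began with set-24, a SET-domain gene with 15.3 FPKM in met-2 set-25, 0.997 in cec-4, 1.37 in dpy-27(RNAi) and 0.804 in wild type, and all 9 stood above every other group. On chromosome V the 6 genes from fbxa-206 to Y102A5C.6, at V:16917201-16930063, 3 of them pseudogenes, had a median of 3.93 and all stood above every other group.

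Families encoding F-box proteins, which recruit substrates to ubiquitin ligases, were higher in part. Most fbxb genes were below the FPKM minimum (102 genes), and of the 11 that passed 5 were higher, 0 were lower and 3 stood above every other group, with fbxb-38 at 10.3 FPKM in met-2 set-25, 0.710 in cec-4, 0.902 in dpy-27(RNAi) and 0.605 in wild type. Of 20 fbxc genes that passed, from 55, 6 were higher and 0 lower, but only 2 stood above every other group. fbxc-44 was one of these, with 7.27 FPKM in met-2 set-25, 1.46 in cec-4, 1.66 in dpy-27(RNAi) and 1.18 in wild type. fbxc-41 was not, since it had 25.5 FPKM in met-2 set-25 and 29.5 in cec-4, with 12.7 in dpy-27(RNAi) and 8.62 in wild type. On the filter that reads neither group, 2 of 6 fbxb genes were higher with a median of 0.32, in place of 0.74. On it 5 of 19 fbxc genes were higher, beside 9.30% of all genes. In the largest F-box family, fbxa, 17 of 123 genes were higher (13.8%) and 10 lower (8.13%), with a median of 0.20. The share higher was above both the 10.7% of all genes and the 6.17% of protein-coding genes. Above every other group were 10 of the 123 genes, against 4.93% of all genes and 2.8% of protein-coding genes. On the filter that reads neither group 13.7% of 124 fbxa genes were higher, beside 5.71% of protein-coding genes.

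For the next families the background was again 10.7% higher and 8.51% lower of all genes, and 6.17% and 6.24% of protein-coding genes. Of 10 btb genes 3 were higher and 1 lower. Of 11 him genes, which share a mutant phenotype and not a sequence, 3 were higher and 1 lower. The acyltransferase-like oac genes split, with 5 higher and 4 lower of 13. The guanylyl cyclase family gcy, mostly expressed in sensory neurons, had a median of 0.54 with 2 higher and 2 lower of 20. Its median was -0.08 over cec-4, since in cec-4 over wild type it was also raised, at 0.42.

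**Figure D2:**
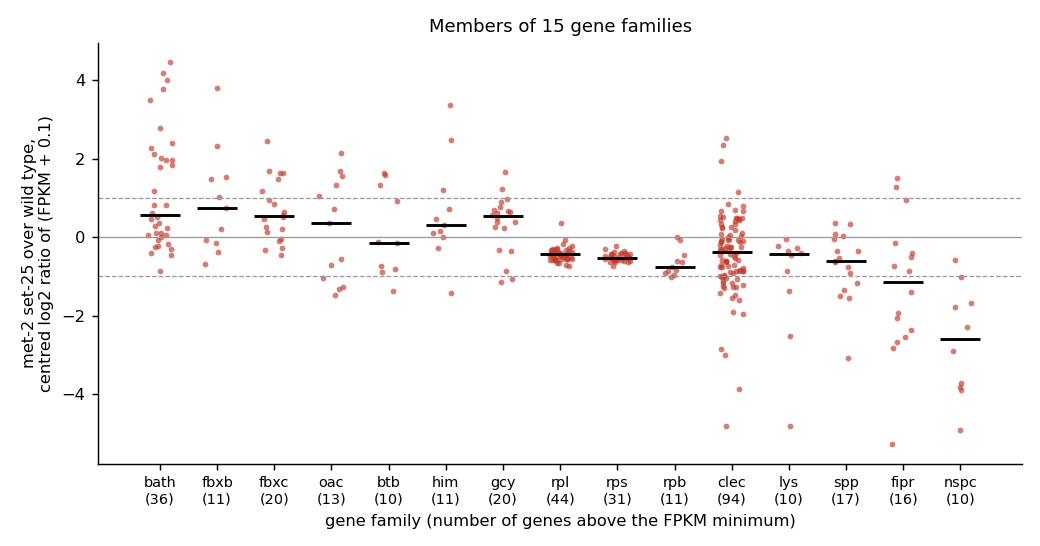
Each point is a gene that passed the FPKM minimum, on the vertical axis its centred log2 ratio of met-2 set-25 over wild type, grouped by family along the horizontal axis, with a black bar at the family median and dashed lines at the limits of 2-fold. The bath points reach up to 4.47 with none below -1, the nspc points all lie below 0, and the ribosomal families rpl and rps are tight bands just below 0.

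Pseudogenes were called higher more often than protein-coding genes. Of 458 annotated pseudogenes that passed, 129 (28.2%) were higher and 31 (6.77%) lower in met-2 set-25 over wild type. On the filter that reads neither group 22.9% of 454 pseudogenes were higher and 5.51% lower, beside 5.71% and 5.72% of protein-coding genes. In the other comparisons with the same control, each on the genes that passed for it, the shares of pseudogenes called higher were 11.6% for cec-4 and 9.20% for dpy-27(RNAi). With only pseudogenes of 200 or more exon bases, which leaves out short tRNA pseudogenes, the shares called higher were 26.9% for met-2 set-25, 6.78% for cec-4 and 3.92% for dpy-27(RNAi). Non-coding RNA genes were also called more often, 34.1% higher and 21.4% lower of 1997 in met-2 set-25, but 32.5% of them were higher in cec-4 as well. Their median exon length was 141 bases, and 293 of those called higher were listed at 0 in wild type.

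Called genes were unevenly placed along the autosomes. Each chromosome was divided into 3 segments of equal length (left, middle and right), and protein-coding genes and pseudogenes were counted. Genes entered by the mean of the compared groups, so one silent in wild type was counted only where the mutant was high. Position was not read on the filter that uses neither group. In the outer segments of the autosomes 639 of 6688 genes (9.55%) were higher in met-2 set-25, against 207 of 4826 (4.29%) in the middle segments. Those above every other group were 5.38% of the outer and 1.41% of the middle genes. Shares of lower genes were closer, 6.83% in the outer and 5.64% in the middle segments. The left segment of chromosome II (15.1%) and the right segment of chromosome V (14.7%) had the highest shares. On the X chromosome 4.21% of outer genes (5.11% left, 3.2% right) and 4.98% of middle genes were higher. By the stricter count 1.67% of outer and 0.786% of middle X genes stood above every other group, on only 21 and 6 genes, so the order of the X segments depends on which count is used.

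Low values passed 2-fold more often, since 13.6% of protein-coding genes averaging 1 to 5 FPKM were higher, against 2.46% of those above 20 FPKM. The shares were therefore also taken within classes of level, an analysis added after the first values were seen. The level was again the mean of met-2 set-25 and wild type, so these classes do not remove the effect of the filter. Among genes averaging 1 to 5 FPKM, 19.6% of outer and 8% of middle autosomal genes were higher. From 5 to 20 FPKM the shares were 9.44% in the outer and 5.34% in the middle segments, and above 20 FPKM they were 3.65% in the outer and 2.01% in the middle segments. On the X chromosome they were 8.85% outer (11.6% left, 6.29% right) and 11% middle at 1 to 5 FPKM. Without the bath, btb, math and F-box families the autosomal shares were 9.12% in the outer and 4.30% in the middle segments, and the left segment of chromosome II had 12.4%.

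**Figure D3:**
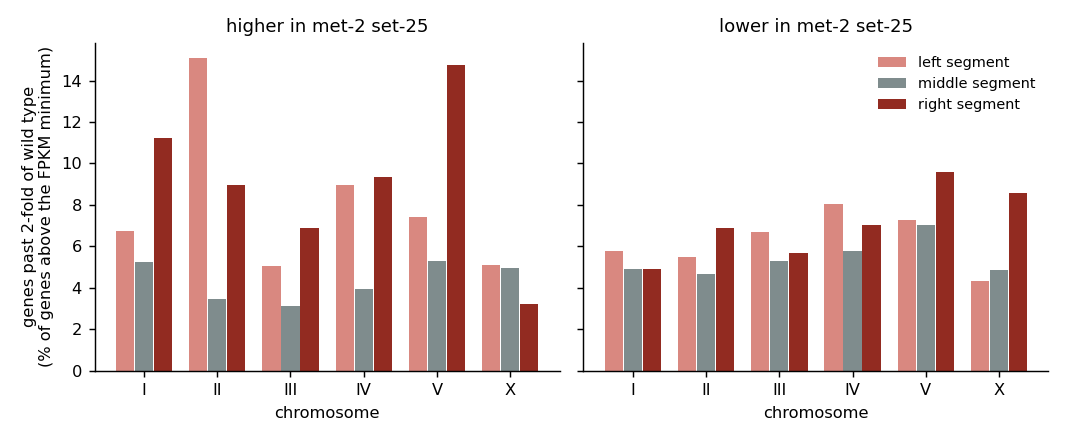
Bars give the percent of protein-coding genes and pseudogenes past 2-fold of wild type in the left, middle and right segment of each chromosome, with genes higher in met-2 set-25 in the left panel and lower genes in the right panel. Middle bars (grey) are the lowest of the 3 for higher genes on each autosome but not on the X chromosome, with the tallest bar in the left segment of chromosome II (15.1%).

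Downward, the small secreted-peptide family nspc (nematode-specific peptide, group c) stood out. Of 20 nspc genes 10 passed, all of them on the X chromosome, and 9 were called lower and 0 higher, against 8.51% and 10.7% of all genes, with a median of -2.60. Below every other group were 8 of the 10, against 1.8% of all genes. nspc-14 had 5 FPKM in met-2 set-25, 60.2 in cec-4, 21.7 in dpy-27(RNAi) and 68.1 in wild type. nspc-20 had 19.6 FPKM in met-2 set-25, 43.1 in cec-4, 43.1 in dpy-27(RNAi) and 64.8 in wild type. The neighbours nspc-16 to nspc-20 formed a run of 5 lower genes at X:14523575-14530207. The family's median was -1.15 in dpy-27(RNAi) over wild type and -0.22 in cec-4 over wild type. Reads may be shared among similar copies here too, and the summed level of the 10 genes was 61 FPKM in met-2 set-25, 201 in cec-4, 150 in dpy-27(RNAi) and 251 in wild type.

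The family fipr (fungus-induced protein related) had 8 of 16 genes lower (50%, against 8.51% of all genes) and 2 higher. The family median was -1.14, and 6 were below every other group, against 1.8% of all genes. The median was -0.41 among genes averaging above 5 FPKM and -0.57 over dpy-27(RNAi), and on the filter that reads neither group it was -0.84, with 9 of 19 genes lower. fipr-4 had 1.31 FPKM in met-2 set-25, 12.5 in cec-4, 5.48 in dpy-27(RNAi) and 9.39 in wild type. The abundant members moved less, as fipr-21 had 204 FPKM in met-2 set-25, 318 in cec-4, 315 in dpy-27(RNAi) and 323 in wild type.

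Families with roles in defence against microbes were lower in part. Of 94 C-type lectin (clec) genes 21 were lower (22.3%, against 8.51% of all genes) and 4 higher (4.26%, against 10.7%). Of 17 saposin-like (spp) genes 5 were lower (29.4%) and 0 higher, and of 10 lysozyme (lys) genes 3 were lower (30%) and 0 higher. On the filter that reads neither group 19 of 92 clec genes were lower and 1 higher. On it 5 of 17 spp genes and 2 of 9 lys genes were lower. Of all genes on that filter 7.73% were lower and 9.30% higher. spp-23 had 94.6 FPKM in met-2 set-25, 240 in cec-4, 224 in dpy-27(RNAi) and 230 in wild type. clec-61 had 0.0981 FPKM in met-2 set-25, 0.787 in cec-4, 0.0871 in dpy-27(RNAi) and 5.20 in wild type, so there it was wild type that stood apart. Below every other group were 3 of the 94 clec, 2 of the 17 spp and 1 of the 10 lys genes, against 1.8% of all genes and 0.924% of protein-coding genes.

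Among single protein-coding genes below every other group, F37C4.8, at IV:3878526-3881219, had the lowest ratio, with 0.0158 FPKM in met-2 set-25, 9.91 in cec-4, 23.3 in dpy-27(RNAi) and 41.6 in wild type. srw-85, a serpentine receptor gene at V:19429387-19431136, had 16.9 FPKM in met-2 set-25, 264 in cec-4, 180 in dpy-27(RNAi) and 190 in wild type. For srw-85 the other groups lay between 180 and 264 FPKM and the mutant alone was low. pud-3 had 4.13 FPKM in met-2 set-25, 71.1 in cec-4, 18.3 in dpy-27(RNAi) and 634 in wild type, and its neighbour pud-4 had 6.97 FPKM in met-2 set-25, 42 in cec-4, 20.7 in dpy-27(RNAi) and 488 in wild type. For this pair wild type was far the highest group and the mutant the lowest. The thaumatin-like gene thn-2 had 0.477 FPKM in met-2 set-25, 9.32 in cec-4, 2.12 in dpy-27(RNAi) and 7.12 in wild type. The others named were Y113G7A.22, listed at 0 in met-2 set-25 with 5.17 FPKM in wild type, and T28D6.3, nspc-14, nspc-16, C47E12.9, R11D1.3 and C01B10.7, with log2 ratios between -4.11 and -3.34.

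Genes of DNA replication and the cell cycle were the lowest list against wild type and against dpy-27(RNAi), but not against cec-4. Of 47 listed genes 43 passed, and 22 were called lower (51.2%, against 8.51% of all genes) and 0 higher. The median was -1, and 0 of the 43 were past 2-fold below all 3 other groups. That was met by 1.8% of all genes and 0.924% of protein-coding genes, so a count of 0 is near the background. cdk-1, the mitotic kinase gene, had 14.4 FPKM in met-2 set-25, 11.8 in cec-4, 24.4 in dpy-27(RNAi) and 45.5 in wild type. The replication clamp gene pcn-1 had 45.1 FPKM in met-2 set-25, 41.1 in cec-4, 80.1 in dpy-27(RNAi) and 134 in wild type. mcm-7, of the replicative helicase, had 13.3 FPKM in met-2 set-25, 9.59 in cec-4, 20.02 in dpy-27(RNAi) and 37.7 in wild type. In all 3, wild type was the highest group and cec-4 lay below met-2 set-25. The medians of the list were -1.33 in cec-4 over wild type and -0.56 in dpy-27(RNAi) over wild type, while that of met-2 set-25 was 0.24 over cec-4 and -0.45 over dpy-27(RNAi).

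Wild type was also the highest group for several genes of fatty acid and lipid metabolism. Of 43 genes that passed 9 were lower (20.9%, against 8.51% of all genes) and 0 higher. The median was -0.63, and 1 gene was below every other group, against 1.8% of all genes. acdh-1, an acyl-CoA dehydrogenase gene, had 0.333 FPKM in met-2 set-25, 0.252 in cec-4, 0.153 in dpy-27(RNAi) and 26.3 in wild type. The fatty acid elongase gene elo-6 had 78.8 FPKM in met-2 set-25, 205 in cec-4, 174 in dpy-27(RNAi) and 299 in wild type, and the lipid-binding protein gene lbp-5 had 41.2 FPKM in met-2 set-25, 55 in cec-4, 72.8 in dpy-27(RNAi) and 156 in wild type. For acdh-1 the low value is shared by the 3 groups other than wild type, whereas for elo-6 the mutant was also past 2-fold below cec-4 and dpy-27(RNAi). Cytosolic ribosomal protein genes were lower by less than 2-fold, with a median of -0.52 for 31 rps genes and -0.44 for 44 rpl genes, none called. Over cec-4 the same medians were -0.04 and -0.07. The RNA polymerase subunit family rpb had a median of -0.77 over wild type and -0.01 over cec-4.

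**Figure D4:**
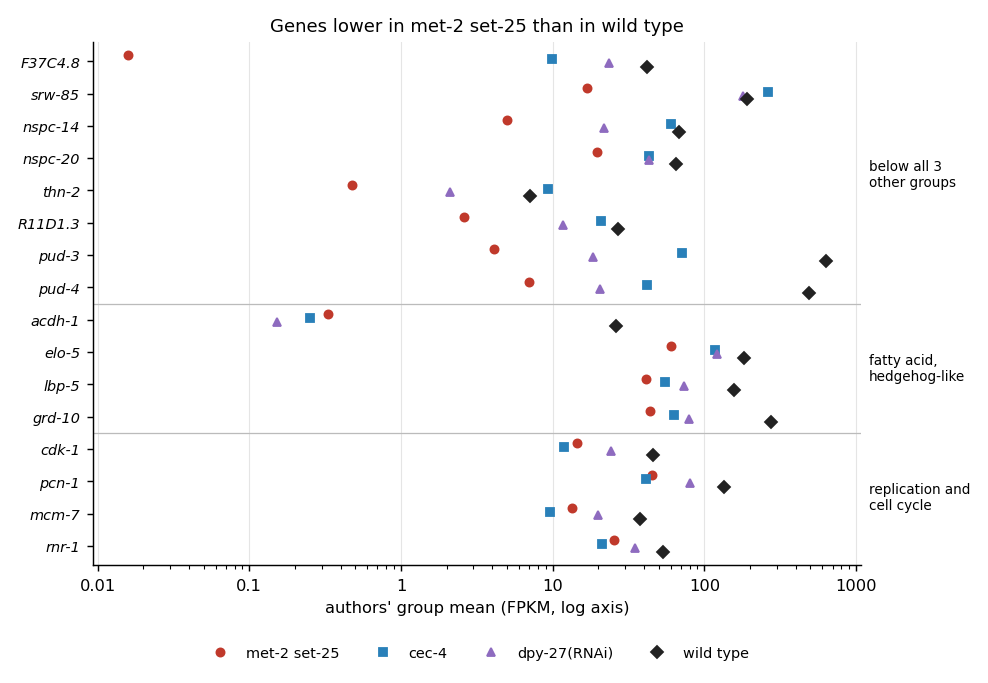
Each row is a gene and each mark the authors' mean FPKM of 1 group on a log axis, with met-2 set-25 as red circles, cec-4 as blue squares, dpy-27(RNAi) as purple triangles and wild type as black diamonds. For srw-85 the red circle alone lies far left, for acdh-1 the black diamond alone lies far right, and for cdk-1, pcn-1, mcm-7 and rnr-1 the groups spread with wild type rightmost and cec-4 leftmost.

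Lists of somatic tissues shifted little. Of all genes 10.7% were called higher and 8.51% lower. Of 37 muscle genes 0 were called in either direction, with a median of 0.12, and of 18 pharynx genes 0 were called, with a median of 0.36. The 56 neuronal genes had a median of 0.40, and 49 of them lay above 0, with 2 higher and 1 lower. unc-42, a homeobox gene of command interneurons, had 49.4 FPKM in met-2 set-25, 38.9 in cec-4, 44.1 in dpy-27(RNAi) and 22.1 in wild type, so that here too wild type stood apart. The neuronal median over cec-4 was 0.01. Intestinal genes had a median of -0.31, with 3 of 34 lower (acdh-1, elo-5 and act-5) and 0 higher, and hypodermal genes a median of -0.35, with 2 of 29 lower and 1 higher.

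In the excretory, seam and glia list, 2 of 15 genes were lower (13.3%, against 8.51% of all genes). grd-10, of a hedgehog-related family, had 43.7 FPKM in met-2 set-25, 62.9 in cec-4, 79.7 in dpy-27(RNAi) and 276 in wild type. Genes of Hox and other fate regulators had a median of 0.22 with 1 higher and 1 lower of 34, and genes of larval timing had a median of 0.00 with 2 of 22 lower.

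Stress lists were mixed, and their counts stand beside 10.7% of all genes higher and 8.51% lower. Of 46 genes of bacterial defence 4 were higher and 8 lower. irg-5, listed in the table as F35E12.5, was the largest upward, with 49.6 FPKM in met-2 set-25, 90.8 in cec-4, 57.6 in dpy-27(RNAi) and 7.93 in wild type, and spp-4 the largest downward, with 6.43 FPKM in met-2 set-25, 18.2 in cec-4, 31.7 in dpy-27(RNAi) and 52.9 in wild type. Of 36 genes of the response to intracellular pathogens 5 were higher and 2 lower, with a median of 0.45. pals-2, listed as C17H1.3 and the largest of these, had 2.64 FPKM in met-2 set-25, 0.553 in cec-4, 3.38 in dpy-27(RNAi) and 0.483 in wild type. Of the 36, 0 stood above every other group, against 4.93% of all genes and 2.8% of protein-coding genes. Heat shock genes had a median of -0.25 with 2 of 26 lower, oxidative and xenobiotic defence 0.04 with 3 higher and 2 lower of 37, and insulin signalling and dauer 0.34 with 2 of 29 lower.

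Genes of the H3K9 pathway itself mostly lay below wild type by less than 2-fold. The called counts here and in the lists after it are no higher than the background. Of all genes 10.7% were called higher and 8.51% lower, and of protein-coding genes 6.17% and 6.24%. Of 21 genes encoding writers, readers and anchors 20 passed, with a median of -0.40 over wild type and 0.05 over cec-4. Below 0 were 16 of the 20, and set-25 was the 1 called lower. cec-8, which encodes a chromodomain protein, was the 1 called higher, with 15.8 FPKM in met-2 set-25, 4.44 in cec-4, 5.27 in dpy-27(RNAi) and 6.88 in wild type, above every other group. lin-13, a zinc-finger partner of HPL-2, had 77.4 FPKM in met-2 set-25, 37.2 in cec-4, 38.9 in dpy-27(RNAi) and 38 in wild type, a log2 ratio of 0.95. The HP1-like gene hpl-2 had 43.8 FPKM in met-2 set-25, 45.3 in cec-4, 56.4 in dpy-27(RNAi) and 69.6 in wild type. The synMuv B and DREAM repressors, several of which keep germline genes off in the soma, had a median of -0.18 with 1 of 18 lower. That gene was lin-53, with 38.6 FPKM in met-2 set-25, 32.5 in cec-4, 53.2 in dpy-27(RNAi) and 76.9 in wild type. Dosage compensation and sex determination genes had a median of -0.03, with her-1 the 1 of 19 called higher.

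**Figure D5:**
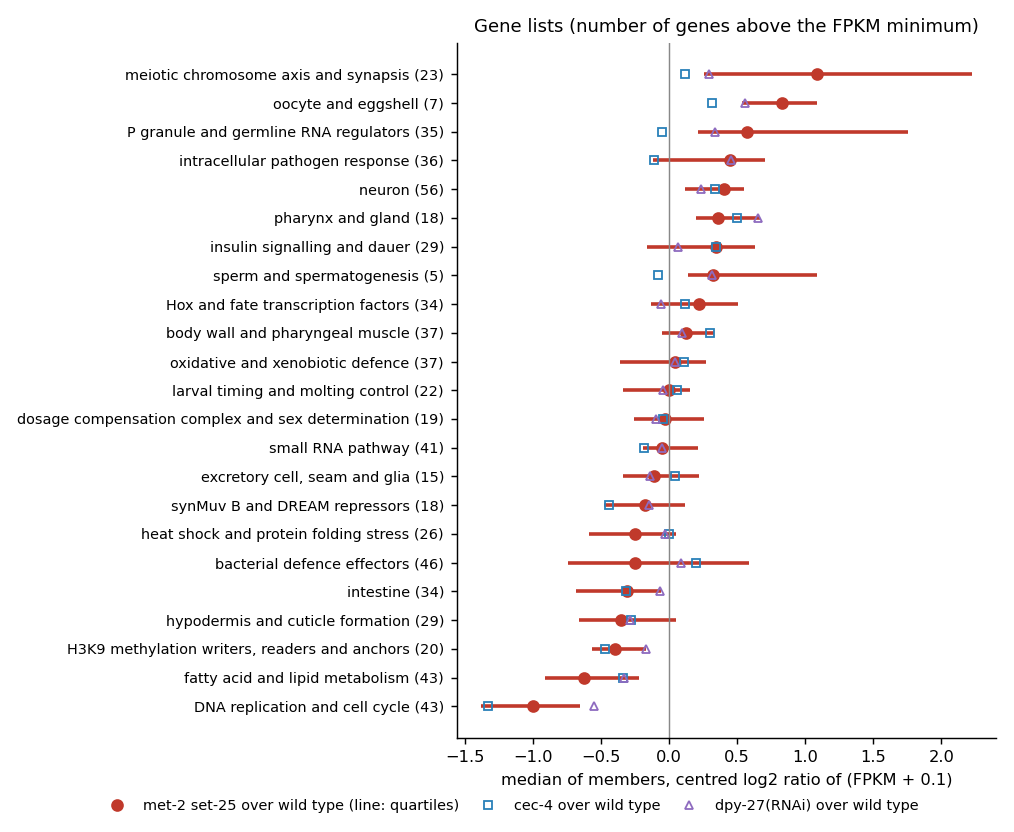
Each row is a gene list with the number of its genes above the FPKM minimum. The red point and line give the median and quartiles of the centred log2 ratio of met-2 set-25 over wild type on the horizontal axis, and open marks give the medians of cec-4 (blue squares) and dpy-27(RNAi) (purple triangles) over the same wild type. For the meiotic list the red point at 1.09 lies right of both open marks (0.11 and 0.29), while for DNA replication the red point at -1 lies between them (-1.33 and -0.56).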

How the data were processed

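Single-end reads of polyA mRNA were trimmed, aligned to WS235 with TopHat and turned into expression values with Cufflinks by the authors, as stated in the methods and the submitters' processing notes (TopHat2 2.0.13, Cufflinks 2.2.1). What the authors deposited is 1 FPKM value per gene and group, their mean over libraries, and 0 columns of single libraries were used. The depth behind the means was not given in these files, and the number of libraries limits their precision. A second table holds the authors' own DESeq2 comparisons (log2 fold changes and adjusted p-values) and was not used.

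Groups were taken from the sample labels. Ratios were computed with a pseudocount of 0.1 FPKM, a minimum mean of 1 FPKM, centring on the median gene and a limit of 2-fold. No test was possible without values per library, so DESeq2 was not run here. Families were the letters before the hyphen of a gene name, for families with 10 or more genes above the minimum. Those described had the highest shares higher or lower or the extreme medians, and fbxa, rps and rpl were added outside that choice. Named genes were met-2 and set-25, the 12 largest and 12 smallest ratios among genes of 5 FPKM or more past 2-fold of every other group, and members of the lists and families described. Genes outside that rule are named as chosen after their values were seen, or serve as members near wild type and as defining members. The 23 lists (848 entries, of which 840 matched the table) came from textbook knowledge. Members, lists and families were chosen with earlier results of these data known. Positions and biotypes came from the Ensembl release 115 annotation of WBcel235, in which 45871 of 46170 gene IDs were found. The calculations were tested on simulated data and made in Python 3.11.15 with numpy 2.4.6 and pandas 2.3.3, and figures with matplotlib 3.10.9. Alternatives covered the pseudocount, the filter, the control group, the centring and the gene class.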

Additional observations from a re-analysis of the deposited data

How the results depend on the processing

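The number of genes called higher and lower, 1723 and 1370 as reported, moved with the filter and with the control group. It was 871 higher and 675 lower above a mean of 5 FPKM, 2838 and 2406 with no minimum, and 1038 and 854 with both groups above 1 FPKM. Counting only genes beyond each of the other 3 groups left 794 higher and 290 lower, and protein-coding genes centred on their own median gave 863 higher and 754 lower. Against dpy-27(RNAi) in place of wild type 1449 genes were higher and 687 lower. The median of the meiotic list was 0.64 with a pseudocount of 1, 2.98 above a mean of 5 FPKM, 0.72 with no minimum, 0.74 with both groups above 1 FPKM, 0.76 on the filter that reads neither group, 0.82 over dpy-27(RNAi) and 0.50 beyond all 3 groups. That of the P granule list was 0.30 above 5 FPKM, 0.24 over dpy-27(RNAi) and 0.19 beyond all 3. The bath median was 0.15 above 5 FPKM, 0.12 with both groups above 1 FPKM, 0.84 over cec-4 and 0.17 beyond all 3. The nspc median was -1.99 with a pseudocount of 1 and also above 5 FPKM, -1.68 with no minimum, -1.77 with both groups above 1 FPKM, -1.20 over dpy-27(RNAi), -2.09 over cec-4 and -1.20 beyond all 3. The fipr median was -0.77 with a pseudocount of 1, -1.52 with no minimum, -0.72 with both groups above 1 FPKM, -1.58 over cec-4 and -0.56 beyond all 3.

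Directions turned mostly with the control group. Over cec-4 the medians turned for DNA replication (0.24, and -0.45 over dpy-27(RNAi) and 0 beyond all 3), the H3K9 pathway (0.0488), pharynx (-0.36), oac (-0.44) and gcy (-0.0796), and so did cdk-1 (0.33), mcm-7 (0.52), pcn-1 (0.18), rnr-1 (0.32), lin-53 (0.29), fbxc-41 (-0.16), acdh-1 (0.34) and irg-5 (-0.83). Over dpy-27(RNAi) they turned for hypodermis (0.11), pharynx (-0.19), intracellular pathogen response (-0.13), acdh-1 (0.78), clec-61 (0.0861), pals-2 (-0.34) and irg-5 (-0.21). With no minimum they turned for sperm (-0.0172), fbxb (-0.0129) and oac (-0.0212), and oac also turned above 5 FPKM (-0.86) and with both groups above 1 FPKM (-0.076). Apart from the change of control and of filter, the causes were not tested. No paired analysis was possible because the files used hold group means only, and for the same reason no replicate could be left out. How far a ratio exceeds the spread between libraries was not measured here, since the group means hold no replicate values or depth.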
